A study of Mus musculus with 8 samples.

Results

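The expression of 9 genes for niche adhesion and homing was examined in bone marrow stem and progenitor cells of wild-type mice at 4 ages. The genes were listed by name for their known roles, with earlier results of these data known, and were found in the deposited tables among 32285 genes. They are Cxcr4, Itga4, Itga6, Itgb1, Cd44, Selplg, Cd9, Alcam and Cd47. Each of the 8 libraries came from 1 wild-type mouse, with 1 male and 1 female at 14 weeks (young), at 50 weeks (middle-aged), at 78 weeks (male) or 79 weeks (female) (old), and at 95 weeks (very old). Cells were freshly collected from bone marrow as lineage-negative, c-Kit-positive cells and profiled with the droplet method Chromium v.3, in which each captured transcript is counted once by a unique molecular identifier (UMI). No mouse was treated. The old and very old mice, 4 in all, are together called older here.

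Blood stem cells (HSC) stay in the bone marrow through receptors that hold them to the niche and through chemoattractant receptors that guide them back to it. CXCR4 binds CXCL12 from stromal cells and retains HSC in the marrow. Integrins are pairs of an α and a β chain that bind matrix and cell-surface ligands. Glycoproteins such as CD44 and PSGL-1 bind hyaluronan or selectins, and tetraspanins organise these receptors in the membrane.

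The 9 genes lie on 6 chromosomes of the mouse genome, and each value below is a count over the whole gene. Coordinates follow the GRCm38 build (GENCODE vM21). Cxcr4 (ENSMUSG00000045382, chr1:128588199-128592293, minus strand) encodes the CXCL12 receptor. Among the integrin chains, Itga4 (ENSMUSG00000027009, chr2:79255426-79333123, plus strand) encodes the α chain of VLA-4, a receptor for VCAM1 and fibronectin. Itga6 (ENSMUSG00000027111, chr2:71745616-71858416, plus strand) encodes a laminin receptor chain. Itgb1 (ENSMUSG00000025809, chr8:128685654-128733200, plus strand) encodes the β chain with which both of these α chains can pair. Cd44 (ENSMUSG00000005087, chr2:102811141-102901665, minus strand) encodes the hyaluronan receptor. Selplg (ENSMUSG00000048163, chr5:113818536-113832644, minus strand) encodes PSGL-1, the main ligand of P-selectin. Cd9 (ENSMUSG00000030342, chr6:125460266-125494791, minus strand) encodes a tetraspanin that is abundant on megakaryocytes and platelets. Alcam (ENSMUSG00000022636, chr16:52248996-52454074, minus strand) encodes CD166, an immunoglobulin-type molecule that binds itself and CD6. Cd47 (ENSMUSG00000055447, chr16:49800533-49915010, plus strand) encodes the ligand of SIRPα that restrains engulfment by macrophages. Itga4 overlaps the opposite-strand gene Cerkl, which had 2662 UMIs against 86877 for Itga4. Cd9 overlaps Gm28809 (630 UMIs) and Gm26728 (106 UMIs) on the other strand, against 67514 for Cd9 itself.

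A promoter window was held by the RefSeq tables (GRCm38) for 7 of the 9 genes, all but Itga6 and Selplg. The sequences before Cd9 and Cd44 are shown because these genes changed with age in opposite directions in HSC-like cells, as described further on. Capitals mark matches, on either strand, to the letters of 5 motifs. The GC box was searched as GGGCGG, the GATA motif as AGATAA and the ETS motif as CCGGAA. Runt-related factors were represented by the letters TGTGGT (RUNX) and basic helix-loop-helix factors by the letters CAGCTG (E-box). The Cd9 window holds the 219 bases before the annotated gene at chr6:125494792-125495010, minus strand. The Cd44 window holds the 250 bases at chr2:102901666-102901915, minus strand. Both are written 5′ to 3′.
Cd9: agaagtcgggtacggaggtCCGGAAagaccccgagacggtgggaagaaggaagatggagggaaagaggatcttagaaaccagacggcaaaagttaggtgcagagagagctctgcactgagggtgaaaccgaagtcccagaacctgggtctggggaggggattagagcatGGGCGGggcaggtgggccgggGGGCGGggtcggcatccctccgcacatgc
Cd44: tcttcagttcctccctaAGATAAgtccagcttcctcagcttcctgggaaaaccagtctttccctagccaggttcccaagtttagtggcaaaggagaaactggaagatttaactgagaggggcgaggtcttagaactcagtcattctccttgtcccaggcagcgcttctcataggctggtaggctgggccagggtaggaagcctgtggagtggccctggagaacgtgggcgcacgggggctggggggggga
The 219 printed bases of Cd9 held 2 GC boxes and 1 ETS match, and the Cd44 window held 1 GATA match. No match overlapped another. Among all 32851 RefSeq windows, the 250 bases before the start held a GC box in 32.7%, an ETS match in 12%, a GATA match in 9.99%, a RUNX match in 14% and an E-box in 13%. Over those 250 bases, Cd9 held 2 GC boxes, 1 ETS match and 1 E-box, and Cd47 held 2 GC boxes and 1 ETS match. Itga4 held 1 GC box, 1 RUNX match and 1 E-box. Cxcr4 held 3 GC boxes, Alcam 2 and Itgb1 1, each with no other match, and Cd44 held no match but the GATA letters. The 2 Cd47 windows start at chr16:49855404 and chr16:49855411, and the Alcam window ends at chr16:52453331. These windows lie inside the annotated genes given above, so their matches do not lie before those genes. A match gives only the letters present in the window.

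The libraries held 59136 cells with 200 or more detected genes, 6459 to 8689 in each library, and 83062003 to 150135029 UMIs per library. Kit was detected in 55.7% to 69.0% of the cells of a library, and the mature T-cell gene Cd3e gave 1 UMI in all. Of the genes of niche cells, Vcam1 gave 4351 UMIs in all, and others were near 0, with 40 UMIs of Cxcl12, 54 of Lepr and 6 of Cdh5 in all libraries. Library pairs shared 6 to 27 cell barcodes, at most 0.382% of the smaller library. By their labels, the 2 very old libraries belong to a library series of their own, so the effects of that series and of reaching 95 weeks cannot be told apart. Since the files held no cell annotation, cells were clustered without the 9 genes and without a further 102 genes of adhesion and homing, and 8 classes with enough cells in every mouse were named from marker genes. HSC genes such as Procr, Hlf and Ly6a led 1 cluster, with 4961 cells, and 11 of 15 HSC markers were highest in it among the classes. Its leading genes also included Ltb, an immune gene, and Nupr1, a stress-response gene. It is called HSC-like. The other names rested on uneven marker counts, with 4 of 8 highest in the multipotent progenitor (MPP)-like class, 2 of 9 in the monocyte progenitor-like class and 5 of 8 in the dendritic progenitor-like class. In the remaining 4 they were 7 of 7 in granulocyte-monocyte progenitor-like, 16 of 17 in erythroid-like, 9 of 10 in megakaryocyte progenitor-like and 10 of 10 in basophil and mast cell-like cells. Of 11447 MPP-like cells, 4828 formed a shallow cluster (median depth 0.244 relative to the library median) with mitochondrial genes among its leading genes. In finer clustering, at a resolution of 1.6, shallow clusters were named HSC-like (2782 cells) or granulocyte-monocyte progenitor-like (2045 cells). Whether these hold the same cells was not examined. The granulocyte-monocyte progenitor-like cluster also had 5 neutrophil progenitor markers among its 50 leading genes. By the same count, the shallow MPP-like cluster had 3 MPP and 3 granulocyte-monocyte progenitor markers. Another MPP-like cluster (1614 cells), led by Dntt, had 3 MPP and 3 lymphoid progenitor markers. The dendritic progenitor-like cluster had 4 of its own markers, Cd74, H2-Aa, H2-Ab1 and Cst3, and 3 monocyte progenitor markers.

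Whether the 9 genes mark particular lineages was examined first. Levels in this description are counts-per-million values (CPM), the UMIs of a gene scaled to the total of its class in a mouse, given as the median and the range over the 8 mice, and levels of different genes were not compared. By median level, Alcam and Selplg were highest in dendritic progenitor-like cells, and Itga6 and Cd9 in megakaryocyte progenitor-like cells. Cxcr4 and Itga4 were highest in basophil and mast cell-like cells, and Cd44 and Cd47 in MPP-like cells. The level of Cd44 was nearly the same in dendritic progenitor-like cells. No test was made, because the classes were built from the same cells.

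Cxcr4 stood at 59.3 CPM (45.3 to 70.0) in basophil and mast cell-like cells, above the next class in 8 of 8 mice. Monocyte progenitor-like cells followed at 42.0 (33.5 to 51.9) and MPP-like cells at 39.9 (31.4 to 45.4), and these neighbours overlapped. Dendritic progenitor-like cells were at 33.7 and granulocyte-monocyte progenitor-like cells at 26.4. HSC-like cells ranked 6 of 8, at 19.4 (14.1 to 25.3), next to megakaryocyte progenitor-like cells at 17.8 (14.8 to 23.0). Erythroid-like cells were lowest, at 10.1 (7.28 to 12.97), with no overlap with the class above.

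Itga4 was likewise highest in basophil and mast cell-like cells, at 187 CPM (159 to 227), above the next class in 8 of 8 mice. Dendritic progenitor-like cells (124), erythroid-like cells (114), megakaryocyte progenitor-like cells (96.1) and MPP-like cells (95.9) followed with overlapping ranges. HSC-like cells were at 78.5 (49.3 to 96.2), below MPP-like cells in 8 of 8 mice and above granulocyte-monocyte progenitor-like cells (49.6) in 8 of 8. Monocyte progenitor-like cells were lowest, at 47.3. Because erythroid-like cells were many and deep, they held 41.9% of all Itga4 UMIs, and HSC-like cells held 3.61%.

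For the other α chain the order was different. Itga6 stood at 84.5 CPM (71.3 to 97.7) in megakaryocyte progenitor-like cells and at 67.5 (40.1 to 96.0) in HSC-like cells. The former was higher in 8 of 8 mice, although the ranges overlapped. MPP-like cells were at 44.1 and basophil and mast cell-like cells at 38.6, and the remaining 4 classes lay between 13.8 and 19.3. Itgb1, the shared β chain, varied less, from 134 (125 to 175) in dendritic progenitor-like cells to 65.6 (58.2 to 72.7) in basophil and mast cell-like cells. HSC-like cells were at 84.4 (72.7 to 93.5) for Itgb1, next to erythroid-like cells at 85.8, and neither of the 2 classes was higher in all mice.

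Cd44, the hyaluronan receptor, was highest in MPP-like and dendritic progenitor-like cells. MPP-like cells (68.6, 58.8 to 82.7) and dendritic progenitor-like cells (67.2) did not differ beyond the spread between mice, since the former was higher in only 3 of 8. HSC-like cells were at 52.2 (44.6 to 85.0) and basophil and mast cell-like cells lowest, at 31.5 (22.9 to 36.5), below every MPP-like value. Selplg had a wider range of levels over the classes. Dendritic progenitor-like cells were at 545 (418 to 687), 4.05-fold above monocyte progenitor-like cells at 134 (115 to 144), with no overlap. Basophil and mast cell-like cells (117) and MPP-like cells (104) followed, and HSC-like cells were at 64.8 (48.8 to 91.5), below every MPP-like value. Erythroid-like cells were lowest for Selplg, at 38.9 (19.4 to 44.0).

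Cd9 was highest in megakaryocyte progenitor-like cells, at 440 CPM (359 to 627), 2.18-fold above dendritic progenitor-like cells at 202 (144 to 265) and without overlap. These cells held 41.3% of all Cd9 UMIs. HSC-like cells ranked 4 of 8, at 101 (66.2 to 170), above MPP-like cells at 72.9 in 8 of 8 mice. Monocyte progenitor-like cells (24.9) and erythroid-like cells (21.7) were lowest and overlapped.

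Alcam had the widest range. Dendritic progenitor-like cells were at 154 (87.9 to 182) and HSC-like cells at 45.4 (29.5 to 112). The former was higher in 8 of 8 mice, and the ranges overlapped. HSC-like cells lay above MPP-like cells (15.7, 12.2 to 26.7) with no overlap, and they held 28.2% of all Alcam UMIs. Granulocyte-monocyte progenitor-like cells were at 13.5, monocyte progenitor-like cells at 9.48, megakaryocyte progenitor-like cells at 3.01, basophil and mast cell-like cells at 1.91 and erythroid-like cells at 0.736. Cd47 was nearly even, between 601 (567 to 703) in MPP-like cells and 418 (372 to 599) in HSC-like cells, whose median was lowest. Erythroid-like cells lay above HSC-like cells in 5 of 8 mice, with overlapping ranges. In the young male and female HSC-like cells were not lowest, at 599 and 490 against 459 and 474 in erythroid-like cells.

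Genes with a like pattern were sought over the 64 sums of 8 mice and 8 classes among 7701 genes with a mean of 10 CPM or more, by Pearson's r of log2(CPM + 1). The sums of a mouse share its library and the classes differ in depth, so the values are descriptive. Cxcr4 was most like Il3ra (0.91), Parvg (0.86) and Csf2rb (0.86). Itga4 was most like Ndst2 (0.88), Ubald2 (0.86) and Dapk1 (0.86). Itga6 was most like Cavin3 (0.93), Gm16141 (0.92) and the tetraspanin gene Cd151 (0.92). For Itgb1 these were Nrd1 (0.87), Ier5 (0.83) and Map4k1 (0.82), and for Cd44 they were Ankle2 (0.76), Glg1 (0.73) and Tor1b (0.72). Selplg had the closest partners of the 9, with Tmsb10 (0.97), Anxa6 (0.96) and Anxa2 (0.96). For Cd9 they included Ubash3b (0.90) and Tln1 (0.89), which encodes the integrin activator talin. Alcam was followed by Tapbpl (0.92), Lyst (0.92) and Phf11b (0.91). Cd47 had no close partner, with Cntrl, Arrb2 and Atp1b3 at 0.60 each. Among the 9 genes themselves, Itgb1 and Cd44 were most alike (0.69), then Selplg and Alcam (0.66) and Itga6 and Cd9 (0.62).

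To ask whether the genes change with age in stem cells, UMIs of HSC-like cells were summed per mouse and tested with edgeR's quasi-likelihood test, with age group and sex as terms, over all 11813 genes that passed a filter on low counts. All 9 genes passed that filter. Older HSC-like cells had more Alcam, Cd9 and Itga6 than young ones, by 2.37-fold, 2.04-fold and 1.89-fold, and less Cd44, by 1.43-fold. Thus 3 of the 9 genes rose and 1 fell, where 6.06% of all tested genes rose, 2.07% fell and 8.13% changed in either direction. Since the 9 were chosen with earlier results of these data known, these shares are no test of the set. The median log2 fold change was -0.08 over the 9 genes and -0.01 over all genes. The remaining 5 did not pass the test.

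**Figure D1:**
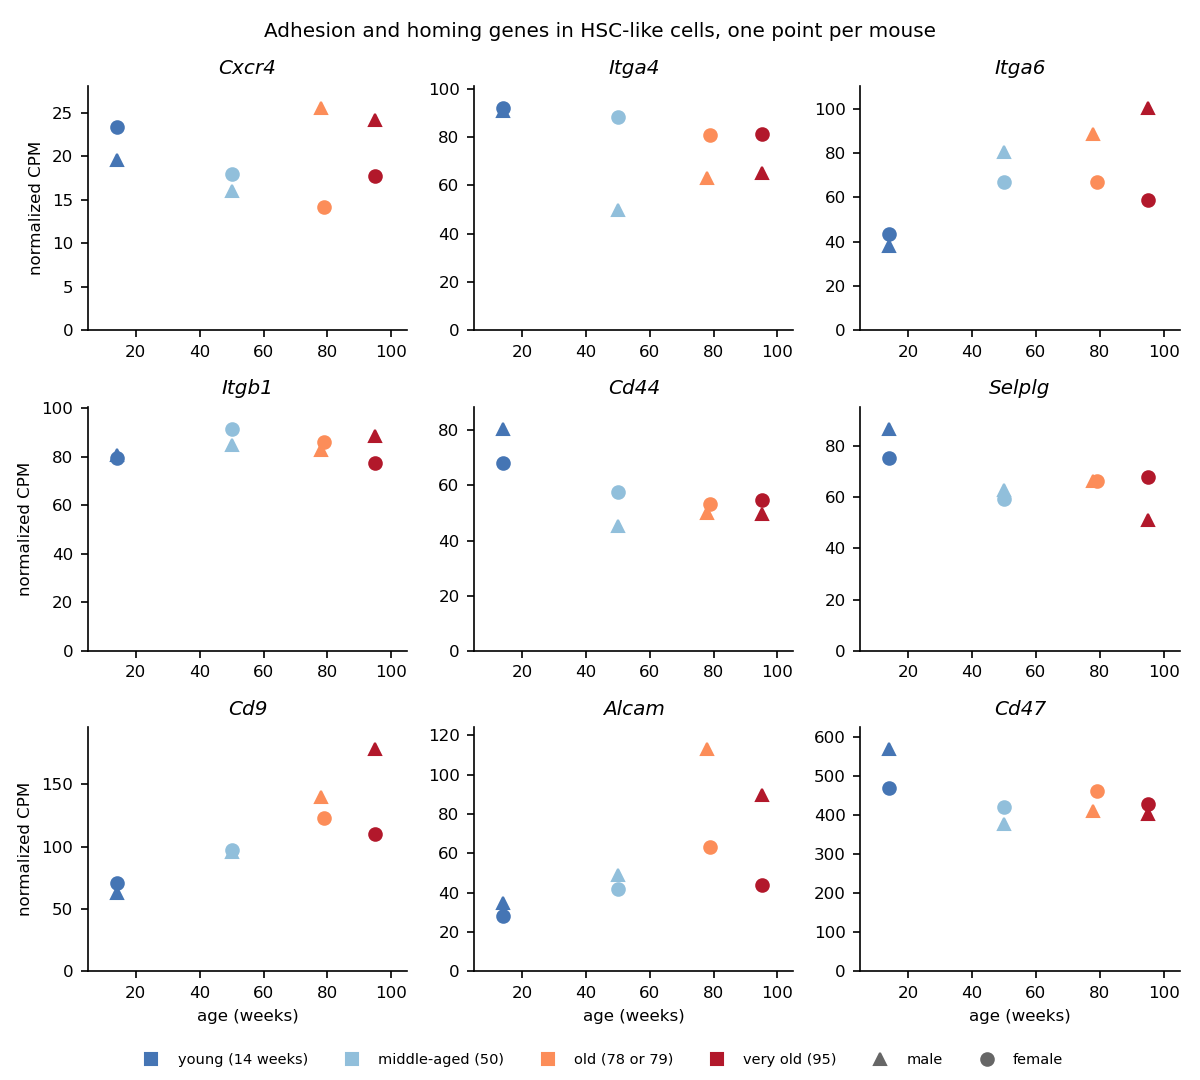
Level of each of the 9 genes in HSC-like cells (y axis, TMM-normalized CPM) against age in weeks (x axis), with 1 point per mouse and males and females marked separately. For Alcam, Cd9 and Itga6 all 4 older mice lay above both young mice, and for Cd44 all 4 lay below them.

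Alcam, the adhesion molecule CD166, was measured at 34.6 CPM (normalized with the TMM method, as are the levels of single genes by mouse that follow, whereas sums over marker lists are plain CPM) in the young male and 28.2 in the young female. It was 48.8 and 41.8 in the middle-aged male and female, 113 and 63.4 in the old mice, and 89.6 and 43.7 in the very old mice, in the same order. These levels came from 133 to 787 UMIs per mouse. Every older mouse lay above both young mice, the males furthest. The middle-aged mice lay above the young, and the middle-aged male lay above the very old female. The log2 fold change of older against young was 1.24 (SE 0.18, adjusted p = 0.0018, edgeR with Benjamini-Hochberg adjustment over all genes, as for each adjusted p that follows).

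Cd9, the tetraspanin, stood at 62.8 and 70.6 CPM in the young male and female and at 95.8 and 97.6 in the middle-aged. It reached 139 and 123 in the old and 178 and 110 in the very old mice. No older or middle-aged mouse overlapped the young, and the log2 fold change of older against young was 1.03 (SE 0.16, adjusted p = 0.00337 by edgeR). Itga6, the laminin receptor chain, stood at 38.1 and 43.2 CPM in the young, 80.5 and 67.0 in the middle-aged, 88.6 and 66.9 in the old and 100.3 and 58.6 in the very old mice. All 6 mice of 50 weeks or more lay above the young, with no order among the 3 later ages. Its log2 fold change was 0.92 (SE 0.17, adjusted p = 0.0074 by edgeR).

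Cd44 went the other way. It stood at 80.6 and 68.0 CPM in the young male and female, at 45.2 and 57.5 in the middle-aged, at 50.0 and 53.4 in the old and at 49.5 and 54.6 in the very old mice. The young mice lay above all others, and the log2 fold change was -0.52 (SE 0.13, adjusted p = 0.0275 by edgeR). This call was the least stable of the 4. It was lost with DESeq2 (adjusted p = 0.072), after thinning every cell to 1 depth of 4700 UMIs (log2 fold change -0.36, adjusted p = 0.188), in cells without a Vwf UMI (-0.30, adjusted p = 0.332) and with age in weeks as a trend (adjusted p = 0.114). It was also lost on leaving out the old male (-0.52, adjusted p = 0.119), the old female (-0.56, 0.0686), the very old male (-0.53, 0.1) or the very old female (-0.57, 0.0505).

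None of the 4 calls was kept without the young male. Without that library, 1 young mouse remained, and edgeR gave a log2 fold change of 1.02 for Alcam (adjusted p = 0.0848), 0.80 for Cd9 (0.124), 0.59 for Itga6 (0.22) and -0.30 for Cd44 (0.472). Over all genes the share of calls then fell to 0.915%. Leaving out any other single mouse kept the calls of Alcam, Cd9 and Itga6, and over all genes those fits called 3.06% to 11.7%. The lone young mouse is assumed to vary like the other groups in such a fit.

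The remaining genes were not called. Selplg stood at 86.7 and 75.2 CPM in young and between 50.9 and 67.9 in older HSC-like cells, which did not overlap, and its log2 fold change was -0.37 (SE 0.13, adjusted p = 0.11). It passed the test without the very old female (adjusted p = 0.0309), without the filter on low counts (0.0478) and in cells without a UMI of a cycling gene (-0.51, 0.0201). Cd47 stood at 567 and 469 CPM in young and 403 to 462 in older mice (-0.29, SE 0.10, adjusted p = 0.117). It passed without the young female (adjusted p = 0.0408). Itga4 stood at 90.7 and 92.0 CPM in young and 63.1 to 81.5 in older mice (-0.34, SE 0.14, adjusted p = 0.173). It passed without either of the middle-aged mice (0.0473 without the male, 0.0486 without the female).

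Cxcr4 and Itgb1 gave no steady direction in HSC-like cells. Cxcr4 stood at 19.5 and 23.3 CPM in young and 14.2 to 25.5 in older mice, which overlapped (log2 fold change -0.08, SE 0.21, adjusted p = 0.871 by edgeR). Itgb1 stood at 80.8 and 79.7 CPM in young and 77.5 to 88.7 in older mice, which overlapped too (0.06, SE 0.11, adjusted p = 0.78 by edgeR). The sign of Cxcr4 turned without the young female (0.24) or the old female (0.07), and that of Itgb1 without the very old male (-0.03). Without adjustment, 7 of the 9 genes had p under 0.05, where 2720 of all 11813 tested genes did. DESeq2 called 3 of the 9, where it called 495 of all tested genes (4.19%).

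The rises were present at both later ages taken singly. Against the young mice, the old mice, which shared their library series, had log2 fold changes of 1.45 for Alcam (adjusted p = 0.00141), 0.97 for Cd9 (0.0101) and 0.91 for Itga6 (0.0164), where edgeR called 6.19% of all genes. The very old mice gave 1.04 for Alcam (adjusted p = 0.0114), 1.09 for Cd9 (0.00558) and 0.93 for Itga6 (0.0159), where 5.49% were called. Cd44 was at -0.52 in both and passed in neither (adjusted p = 0.0601 and 0.0711 by edgeR).

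Other properties of the HSC-like cells moved with age beside these genes. HSC-like cells made up 5.55% to 5.81% of the cells in young, 6.89% to 9.76% in middle-aged and 7.53% to 13.5% in older mice. The HSC marker list was higher in older HSC-like cells for 12 of its 15 genes and the MPP list lower for 4 of 8. Summed levels were 1940 to 2128 CPM in young and 2529 to 3748 in older mice for the HSC list, and 1631 to 2041 against 953 to 1247 for the MPP list. For the megakaryocyte progenitor list, 2 of 6 tested genes of 10 were higher, with sums of 127 to 152 in young and 123 to 173 in older mice. Lists of other cells moved as well. The lymphoid progenitor list was lower for 1 of 3 tested genes of 12 with 1 gene at 0, and its sums did not overlap, at 68.8 to 89.1 CPM in young and 22.7 to 41.7 in older mice. The erythroid-megakaryocyte precursor list was higher for 3 of 7 genes, with sums of 413 to 436 CPM in young and 567 to 743 in older mice, and the dendritic progenitor list for 3 of 6 tested genes of 8, with 870.1 to 1030.3 against 1092 to 1193. The macrophage list was lower for 3 of 5 tested genes of 7, with sums of 52.7 to 60.3 CPM in young and 9.94 to 34.6 in older mice and no gene at 0. For the T or NK cell list the 1 tested gene of 7 was higher and 2 genes were at 0, with sums of 1.30 to 2.22 against 12.9 to 30.5. The endothelial list was higher for 2 of 3 tested genes of 5 with 1 at 0, and its sums, 39.7 to 42.5 in young and 38.1 to 59.5 in older mice, overlapped. The sums of the remaining 8 lists overlapped between young and older mice too. Cells without a UMI of Mki67, Top2a or Ccnb1 made up 57.3% to 61.8% in young and 72.7% to 84.5% in older HSC-like cells, and median depth was 8882.5 to 9255 UMIs against 7053 to 8200.5. The part of these shifts in the change of the 9 genes was not tested. Restricted to cells without a cycling UMI, the log2 fold changes were 1.16 for Alcam, 1.01 for Cd9, 0.99 for Itga6 and -0.62 for Cd44, all called. In cells thinned to 1 depth they were 1.17 for Alcam, 1.02 for Cd9 and 0.85 for Itga6, all called. In cells with a UMI of the HSC gene Hlf they were 1.21, 1.02, 0.89 and, for Cd44, -0.50, again all called. Such cells made up 88.2% to 90.3% of young and 80.4% to 91.6% of older HSC-like cells, so this subset could hardly change the calls.

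Shares of cells with a UMI were also compared. After thinning to 4700 UMIs, an Alcam UMI was found in 14.0% to 15.7% of young, 16.2% to 21.3% of middle-aged and 16.8% to 34.7% of older HSC-like cells. Without thinning these shares were 24.9% to 27.3% in young and 23.9% to 49.0% in older mice, which overlap. In erythroid-like cells the thinned share was at most 0.901%, although these cells were deeper, with medians of 14817 to 35713 UMIs per mouse against 7053 to 10543 in HSC-like cells. Thinned shares with a Cd9 UMI were 25.9% to 27.0% in young and 38.1% to 54.2% in older HSC-like cells, and 4.90% to 14.9% in erythroid-like cells. Without thinning the Cd9 shares were 43.3% to 45.9% in young and 50.5% to 73.8% in older mice, which do not overlap. Those with an Itga6 UMI were 15.7% to 18.7% in young and 21.4% to 32.7% in older HSC-like cells after thinning. Without thinning they were 30.2% to 32.4% in young and 32.01% to 50.3% in older mice, which overlap. Thinned shares for Cd44 were 25.6% to 30.9% in young and 19.7% to 23.4% in older mice. With 2 young and 4 older mice, an exact permutation test of such shares cannot go below p = 0.0667, and none was made.

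Whether the change was already present at 50 weeks was examined in mice of 1 library series. In middle-aged against young HSC-like cells, 0 of the 9 genes passed edgeR's test, where 1.09% of all genes did. At an unadjusted p under 0.05 there were 7 of 9, where 1615 of all 11813 tested genes (13.7%) were. DESeq2 called 1 of 9, Itga6, where it called 1.14% of all genes with an adjusted p. Itga6 had the largest difference, at 0.84 (SE 0.19, adjusted p = 0.0649), and it passed on leaving out the young female (1.19, adjusted p = 0.0116), the very old male (0.82, 0.041) or the very old female (0.82, 0.043). Cd44 was at -0.54 (adjusted p = 0.125), Cd9 at 0.53 (0.231) and Alcam at 0.52 (0.28). Without the filter on low counts all 4 passed edgeR's test, at 0.87 for Itga6 (adjusted p = 3.04e-06), -0.51 for Cd44 (0.0258), 0.56 for Cd9 (0.00559) and 0.56 for Alcam (0.0242), where 3.49% of 18435 genes were called. Cd44 passed without the young female (-0.76, adjusted p = 0.0433) or the middle-aged female (-0.71, 0.0436). Itga4 passed without the middle-aged female (-0.75, 0.0309) and Cd47 without the young female (-0.58, 0.0488).

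The same comparison of older with young was then made in the other 7 classes and in all cells together. Cd9 rose in megakaryocyte progenitor-like and MPP-like cells, and Alcam in megakaryocyte progenitor-like cells. In the other 5 classes none of the 9 genes was called.

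**Figure D2:**
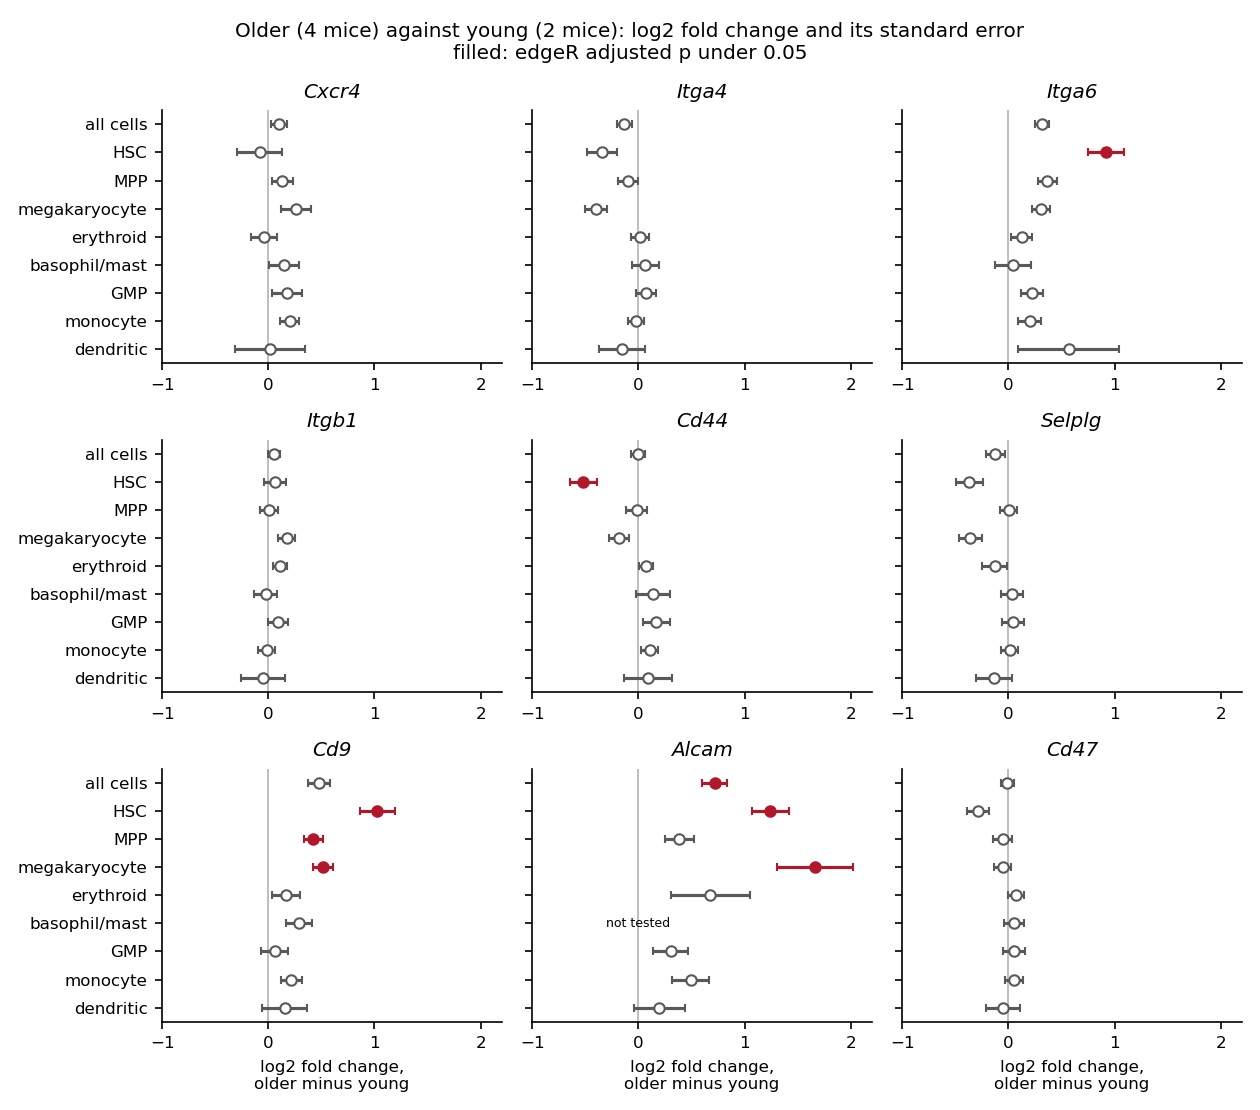
Log2 fold change of older against young mice (x axis, error bars are standard errors) for each of the 9 genes in the 8 classes and in all cells, with filled points where edgeR's adjusted p was under 0.05. Filled points stand for Alcam, Cd9, Itga6 and Cd44 in HSC-like cells, Cd9 and Alcam in megakaryocyte progenitor-like cells, Cd9 in MPP-like cells and Alcam in all cells.

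In megakaryocyte progenitor-like cells, where edgeR called 2.92% of genes, Cd9 was at 356 and 377 CPM in young and at 517, 481, 630 and 476 in the old male, old female, very old male and very old female. The older mice lay above the young, with middle-aged mice at 396 and 417 between them. The log2 fold change was 0.51 (SE 0.10, adjusted p = 0.00937), and it fell short of the threshold without the young male (0.40, adjusted p = 0.387) and with the old mice alone (0.44, 0.0579). Alcam was low there, with 10 and 15 UMIs in the young and 21 to 50 in the older mice. Its log2 fold change of 1.66 (SE 0.36, adjusted p = 0.0205) was lost without the young male (0.86, adjusted p = 0.695), the old male (1.41, 0.0764) or the very old male (1.65, 0.0782), and with DESeq2 (0.121). Marker lists moved in these cells too. The HSC list was higher for 8 of 15 genes, with sums of 588 to 616 CPM in young and 733 to 915 in older mice, and the megakaryocyte progenitor list for 3 of 8 tested genes of 10, with 2481 to 3328 against 3763 to 5323. Lower were 4 of 17 erythroid genes, with sums of 1220 to 1231 in young and 935 to 1154 in older mice, and 2 of 7 granulocyte-monocyte progenitor genes, whose sums overlapped. Of the macrophage list 1 of 5 tested genes was lower, with sums of 29.4 to 38.1 against 5.14 to 22.9. The dendritic progenitor list was higher for 1 of 6 tested genes of 8, with sums of 487 to 498 against 520 to 556. The basophil and mast cell and erythroid-megakaryocyte precursor lists each had 1 gene higher and the lymphoid progenitor list 1 lower, with overlapping sums. Their part in the Cd9 and Alcam differences was not tested.

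In MPP-like cells, where 0.977% of genes were called, Cd9 was at 62.3 and 55.4 CPM in the young, at 70.3 and 77.9 in the old and at 86.1 and 82.2 in the very old mice. The groups did not overlap and the log2 fold change was 0.42 (SE 0.09, adjusted p = 0.0376). The call was lost with DESeq2 (adjusted p = 0.0643) and on leaving out either young, either old or either very old mouse, with log2 fold changes of 0.33 to 0.53. In the same cells the HSC list was higher for 5 of 15 genes, with sums of 458 to 481 CPM in young and 631 to 849 in older mice. The lymphoid progenitor list was lower for 4 of 10 tested genes of 12, with 304 to 329 against 139 to 242, and the macrophage list for 5 of 7, with 34.5 to 39.2 against 5.42 to 17.2. The erythroid list was lower for 3 of 17 genes, and its sums overlapped. The erythroid-megakaryocyte precursor list was higher for 1 of 7 genes, with 299 to 309 against 321 to 377. Also higher were 2 of 7 tested dendritic progenitor genes of 8 and 1 of 7 tested basophil and mast cell genes of 10, with overlapping sums. The part of these shifts in the Cd9 difference was not tested. In middle-aged against young MPP-like cells, where 0.937% of genes were called, Itga6 alone of the 9 passed (0.59, adjusted p = 0.0129).

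None of the 9 genes was called by edgeR or DESeq2 in erythroid-like cells, where 0% of genes were called by edgeR and 0 of the 9 had an unadjusted p under 0.05, against 5.68% of all genes. The same held in granulocyte-monocyte progenitor-like cells (0.0177% called, 0 of the 9 and 4.46% of all genes unadjusted) and dendritic progenitor-like cells (0% called, 0 of the 9 and 2.91% of all genes unadjusted). In monocyte progenitor-like cells (0.0337% called) there were 2 of the 9 at an unadjusted p under 0.05, against 8.26% of all genes. In basophil and mast cell-like cells (0.0584% called) there was 1 of 8, against 7.38% of all genes, since Alcam did not pass the filter there. In dendritic progenitor-like cells, the class with most Alcam and Selplg, the log2 fold changes were 0.20 (SE 0.24) and -0.14 (SE 0.17). Only 34 to 110 such cells were present in a mouse. In erythroid-like cells, the mean of the 2 later ages combined opposite fold changes for some genes. Against young, Cd9 was 1.71-fold in old and 0.737-fold in very old mice, Itga6 1.55-fold and 0.767-fold, and Selplg 1.27-fold and 0.657-fold. Cxcr4 went the other way (0.774-fold and 1.22-fold), and Alcam was higher at both ages (1.86-fold and 1.38-fold). None of the 9 was called at either age alone. The 2 young mice differed as widely, with Cd9 at 18.9 CPM in the male and 10.8 in the female. It was 24.8 to 25.8 in old and 8.64 to 11.5 in very old mice. Erythroid-like cells made up 25.2% of the cells in the young female and 26.8% to 29.8% in very old mice. In the young male they made up 17.1% and in old mice 12.4% to 13.7%, and the part of this spread was not tested. The very old mice also differ in library series.

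In all cells together, fewer cells of a class and less RNA per cell cannot be told apart. There edgeR called 1.21% of 15361 genes, and of the 9 Alcam alone (0.72, SE 0.12, adjusted p = 0.0398). DESeq2 called 3 of the 9, where it called 2.63% of all genes. At an unadjusted p under 0.05 there were 3 of the 9 and 11.7% of all genes. The Alcam call was kept on leaving out the old female and lost on leaving out any other single mouse (0.61 to 0.83), with adjusted p of 0.224 without the young male. Of the HSC list 7 of 15 genes were higher in all cells, with sums of 287 to 370 CPM in young and 404 to 659 in older mice. HSC-like cells, which held 28.2% of all Alcam UMIs, made up 5.55% to 5.81% of the cells in young and 7.53% to 13.5% in older mice. Of the macrophage list 1 of 7 genes was lower, with sums of 26.7 to 42.7 against 4.52 to 10.98. With each of the 8 classes given equal weight in every mouse, the log2 difference was 0.38 for Alcam, 0.37 for Cd9 and 0.36 for Itga6.

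An effect called in 1 class and missed in another is not shown to differ, so the difference between the age effects was tested itself, in pairs of HSC-like and 1 other class with the mouse as a block. Of 63 such tests, 17 passed. They comprised 5 for Cd9, 4 for Alcam, 4 for Itga6, 3 for Cd44 and 1 for Selplg, and 0 for Cxcr4, Itga4, Itgb1 and Cd47. The difference for Cd9 was positive against all 7 classes, from 0.48 to 0.96 on the log2 scale. All 7 pairs used the same HSC-like sums, so the 7 signs are not independent. Against megakaryocyte progenitor-like cells it was 0.48 (SE 0.09, adjusted p = 0.00398), where 3.34% of all genes passed, so that Cd9 rose more in HSC-like cells than in the class where its level was highest. The difference for Itga6 in that pair was 0.59 (SE 0.13, adjusted p = 0.0106).

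Against MPP-like cells, where 4.52% of all genes passed, the difference was 0.86 for Alcam (SE 0.16, adjusted p = 0.00346), 0.60 for Cd9 (SE 0.14, 0.0146), 0.56 for Itga6 (SE 0.16, 0.0498), -0.51 for Cd44 (SE 0.10, 0.0046) and -0.38 for Selplg (SE 0.11, 0.047). The Itga6 difference missed the threshold with RLE normalization (adjusted p = 0.0508) and without either old mouse (0.191 and 0.166), the young male (0.848) or the very old male (0.286). The Selplg difference missed the threshold in 6 of the 8 fits that left out 1 mouse, with values of -0.54 to -0.25. Against monocyte progenitor-like cells (3.04% of genes) and granulocyte-monocyte progenitor-like cells (1.34%), Cd44, Cd9 and Alcam passed in both and Itga6 in the former. Against dendritic progenitor-like cells (0.869%), Cd9 and Alcam passed. Against basophil and mast cell-like cells (1.47%) only Itga6 passed, and against erythroid-like cells (0.926%) none of the 9 did, where 5 of the 9 and 13.6% of all genes had an unadjusted p under 0.05. Without the young male none of the 17 remained, and the MPP-like difference of Alcam was then 0.58 (adjusted p = 0.363). Leaving out the old male lost 6, the old female 7, the very old male 9, the young female 5 and the middle-aged male 1.

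HSC-like cells are not uniform, and Vwf marks a platelet-biased part of them. After thinning, Vwf was found in 2.004% to 2.204% of young, 8.82% to 10.6% of middle-aged and 10.4% to 18.1% of older HSC-like cells. Cells with and without a Vwf UMI were summed separately in each mouse and compared with the mouse as a block. Itga6, Cd9 and Alcam were higher in the cells with Vwf, and none of the 9 genes was called lower, where 6.92% of 10119 genes were called, 3.59% higher and 3.33% lower.

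**Figure D3:**
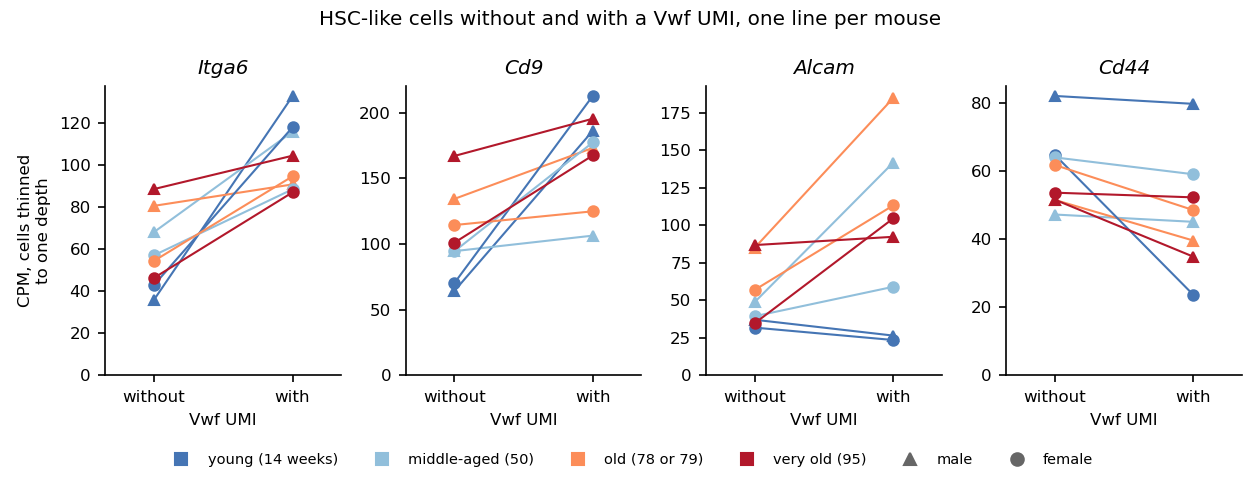
Level (y axis, CPM in cells thinned to 1 depth) of Itga6, Cd9, Alcam and Cd44 in HSC-like cells without and with a Vwf UMI (x axis), with 1 line per mouse. Itga6 and Cd9 rose along the line of every mouse, Alcam in the 6 mice of 50 weeks or more, and Cd44 was lower with Vwf in all 8 without passing the test. The young mice had only 8 and 9 cells with Vwf, so their points there rest on very few UMIs.

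Itga6 stood at 133 and 118 CPM in the Vwf cells of the young male and female against 36.0 and 43.0 in the cells without. In the 6 other mice it was 87.2 to 116 with Vwf and 46.4 to 88.7 without. It was higher with Vwf in 8 of 8 mice, with a log2 difference of 0.58 (SE 0.12, adjusted p = 0.000149 by edgeR). Cd9 was higher in 8 of 8 mice too, at 106 to 213 with Vwf and 64.1 to 167 without (0.46, SE 0.11, adjusted p = 0.000568). Alcam had the largest difference, 0.96 (SE 0.12, adjusted p = 1.46e-13), yet only in 6 of 8 mice. In the young male it was 26.6 with against 37.2 without Vwf and in the young female 23.6 against 31.9, whereas in the other mice it was 59.1 to 185 against 34.7 to 86.9. The young mice had only 8 and 9 cells with Vwf, and the other mice 36 to 145. These 3 calls were kept on leaving out each mouse.

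Cd44 was lower in Vwf cells in 8 of 8 mice, and so was Selplg, without passing the test (-0.29, adjusted p = 0.332, and -0.26, adjusted p = 0.375). Without thinning, Itga4, Cd44 and Selplg were called lower in Vwf cells. Within the cells without a Vwf UMI, older against young gave 0.998 for Alcam (adjusted p = 0.00451), 1.04 for Cd9 (0.000486) and 0.84 for Itga6 (0.0127), in sums of thinned cells. Thinning misses Vwf in some cells. The share with a Vwf UMI was 18.1% thinned and 26.95% unthinned in the old male, and 2.204% and 3.163% in the young male. Cells with missed Vwf thus stayed in this subset, and their part in these differences was not tested.

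The wider set of 102 adhesion and homing genes, also chosen with earlier results of these data known, was used to place these changes. In HSC-like cells, 75 of them were tested, of which 13 rose and 7 fell with age, where 6.06% of all tested genes rose and 2.07% fell, and their median log2 fold change was 0.07. Immunoglobulin-type adhesion receptors rose for 5 of 15 and fell for 1, chemoattractant receptors rose for 3 of 6, and tetraspanins fell for 3 of 10 and rose for 1. Of other integrins, 2 of 11 rose and 2 fell. Of the genes for integrin activation and coupling, 1 of 16 rose and 1 fell. Of the selectins and selectin-ligand enzymes 1 of 10 rose, and of 4 other adhesion receptors and 3 niche ligands none was called. The 13 counted as rising include Gpr183 and Ncam1, with only 2 and 3 UMIs in each young mouse. These genes could pass the filter on low counts only through the other mice. Jam2, also among the 13, was low in the young mice too (1.48 and 3.18 CPM).

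**Figure D4:**
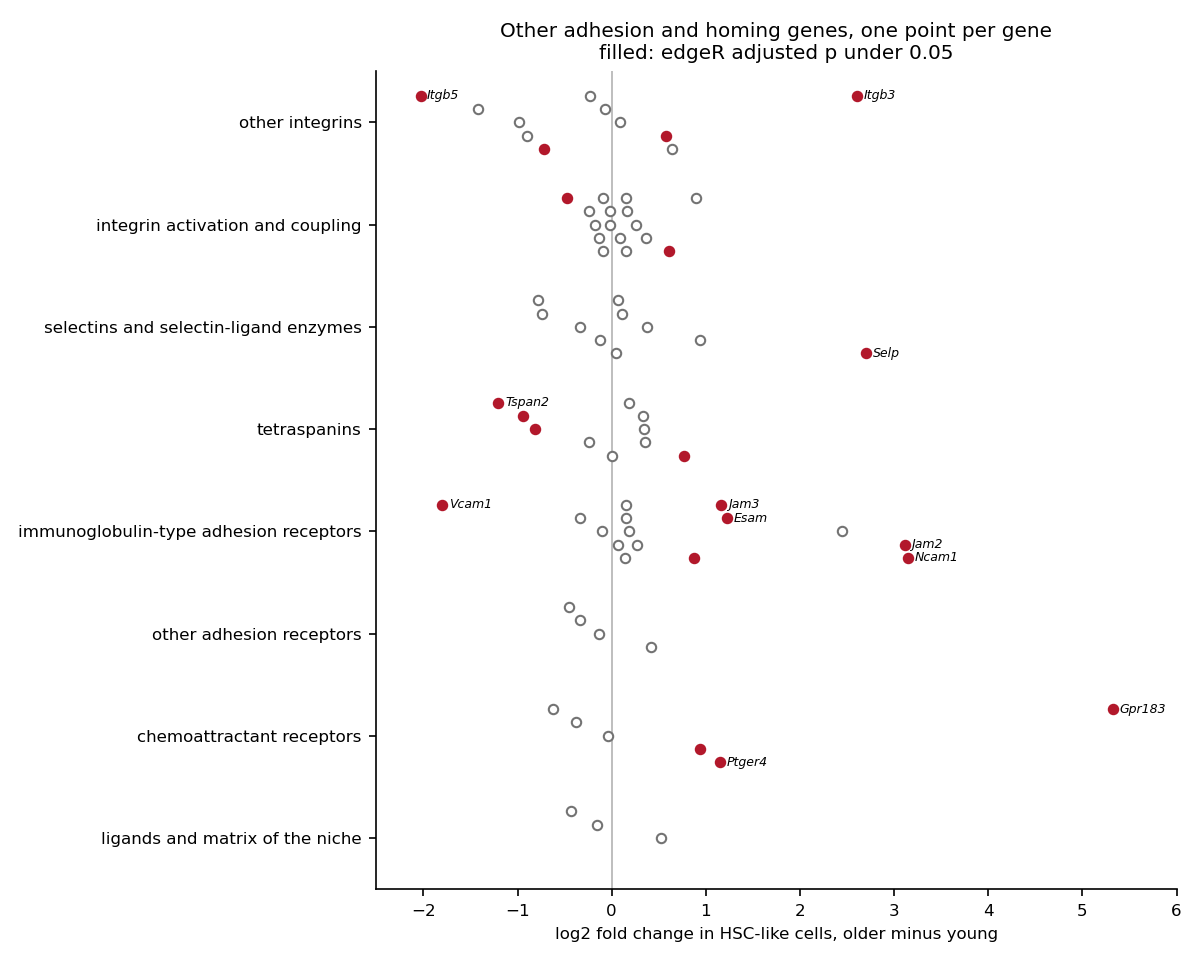
Log2 fold change of older against young HSC-like cells (x axis) for the tested genes of the wider set, 1 point per gene, in 8 groups (y axis), with filled points where edgeR's adjusted p was under 0.05. Gpr183 lies furthest to the right, at 5.33, and Itgb5 furthest to the left of the filled points, at -2.03.

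Gpr183, the oxysterol receptor EBI2, had a fitted log2 fold change of 5.33 (SE 0.38). It was at 0.494 and 0.424 CPM in the young, 5.97 and 2.71 in the middle-aged, 39.0 and 15.03 in the old and 24.0 and 6.22 in the very old male and female. The young values are 2 UMIs in each mouse, against 28 to 272 in the older, so the size of the fold is poorly known. At such young counts Gpr183 could pass the filter on low counts only through the other mice. Its call is therefore no independent test of a rise. The ratio of the summed levels was 47.1, with a 95% exact interval of 18.3 to 173.6 that covers counting error only. Ptger4, a prostaglandin E receptor, rose by 1.15. Selp encodes P-selectin, the ligand of the Selplg product, and it stood at 5.44 and 9.54 CPM in young and 39.0 to 65.9 in older HSC-like cells (2.70, SE 0.24, adjusted p = 9.75e-05). Selp thus rose in the cells in which Selplg was at -0.37 and not called.

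The junctional adhesion genes Jam3 (1.16, SE 0.28) and Esam (1.23, SE 0.14) rose, and Jam2 had a fitted log2 fold change of 3.11 (SE 0.34). Jam2 was low in the young, at 1.48 and 3.18 CPM, against 12.7 to 26.1 in the older mice. The size of its fold is therefore poorly known. Whether it would pass the filter on low counts from the young mice alone was not examined. Ncam1 had a fitted log2 fold change of 3.15 (SE 0.69). It was at 0.741 and 0.636 CPM in the young and 2.66 to 11.8 in the older mice, from 3 UMIs in each young mouse. Like Gpr183, it could pass the filter on low counts only through the other mice, so its call is no independent test of a rise. The ratio of the summed levels of Ncam1 was 8.995 (95% exact interval 4.04 to 24.9, counting error only). Vcam1, a ligand of the integrin that holds the Itga4 chain, fell by 1.80 from 4.70 and 6.15 CPM to 0.573 to 2.40. Macrophages also carry VCAM1, and the macrophage list was lower in the same cells (52.7 to 60.3 CPM in young, 9.94 to 34.6 in older mice). Macrophage-like cells made up 0.891% to 1.08% of the cells in young and 0.113% to 0.326% in older mice, and their part in the Vcam1 difference was not tested. Itgb3, a β chain known from platelets, rose by 2.60 (SE 0.32, adjusted p = 0.000753), from 2.22 and 4.66 CPM to 13.3 to 29.8, and Itgb5 fell by 2.03 (SE 0.26). Among the tetraspanins, Tspan2 fell by 1.20 and Cd37 by 0.94. Cd63, the only tetraspanin of the wider set that rose, went from 267 and 265 CPM in young to 382 to 546 in older mice (0.77, SE 0.11, adjusted p = 0.00198). In the other classes, edgeR called 11 higher and 1 lower of 69 in megakaryocyte progenitor-like cells (2.92% of all genes called in either direction) and 3 higher and 1 lower of 83 in MPP-like cells (0.977% of all).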

How the data were processed

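Marrow progenitors of 8 mice, depleted of lineage markers and sorted for c-Kit, were profiled by single-cell RNA sequencing. Reads were processed by the authors in Cell Ranger (version 6.0.0 per the file headers, another in the methods) on mm10 per the submitters' processing notes. The deposited matrices hold raw UMI counts, not normalized, for barcodes taken for cells. No column of another kind was used. Here, 59136 of 59465 barcodes with 200 or more detected genes were kept. Counts scaled to 10000 per cell, 2000 variable genes and 30 components, corrected by an own version of Harmony (θ = 1), were clustered with 20 neighbours by leidenalg 0.10.2 at a resolution of 0.8 in scanpy 1.11.5, without 117 genes (the 9 genes, the wider set and sex-linked genes). A class name required 3 or more of its markers within the 50 leading genes of a cluster, and more markers in the top 10 for no rival class. The 12832 unnamed cells entered only the sums of all cells. No doublets were removed in the main fits. In the alternative, scrublet called under 0.5% of cells in 3 libraries, where the top-scoring expected share (0.8% per 1000 cells) was removed instead. For shares and the Vwf split, cells were thinned to 4700 UMIs, which left out 6.73% to 17.6% of HSC-like cells per mouse.

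UMI counts summed per mouse and class (20 or more cells in every mouse) were tested with edgeR 4.0.16 (TMM, filterByExpr, quasi-likelihood) in R 4.3.3, on age group and sex over all 8 mice, with Benjamini-Hochberg adjustment over all genes tested. The contrast was the mean of old and very old minus young. The class by age difference and the Vwf split had the mouse as a block. Replicate 1 is the male and replicate 2 the female of each age, so the sex term is the block for the replicate number. The numbers mark sex and not shared animals. DESeq2 1.42.0 was an alternative. The fits were tested on simulated data before use. Samples are single mice, and the spread within an age includes sex. The depth, 83062003 to 150135029 UMIs per library, gives 133 to 787 Alcam UMIs per mouse in HSC-like cells. Ranges of shares are over single mice and include the spread between them.

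The 9 genes, the wider set of 102 genes and the markers were chosen with earlier results of these data known. Named genes are the 9, up to 12 called genes of the wider set by size of change, any gene of that set counted singly, and for each of the 9 the 3 genes most like it, of which 1 is not reported here. Of 32285 gene identifiers, 32158 were found in GENCODE vM21. Promoter windows are from RefSeq.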

Additional observations from a re-analysis of the deposited data

Results flagged for a closer look

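Within HSC-like cells, Selplg in the very old male (50.9 CPM) stood apart from the 3 other older mice (66.4 to 67.9 CPM). It was the only such case among 36 groups of 4 older mice examined, and chance gives about 1 in 20.

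The effect of age differed between HSC-like cells and another class in 17 of 63 tests (edgeR, adjusted over all genes). Of all genes, 0.869% to 4.52% passed in such a pair of classes. Values are the log2 effect in HSC-like cells minus that in the other class. Against MPP-like cells they were 0.864 for Alcam, 0.596 for Cd9, 0.558 for Itga6, -0.514 for Cd44 and -0.378 for Selplg. Against granulocyte-monocyte progenitor-like cells they were 0.96 for Cd9, 0.897 for Alcam and -0.695 for Cd44. Against monocyte progenitor-like cells they were 0.807 for Cd9, 0.727 for Alcam, 0.715 for Itga6 and -0.618 for Cd44. Against dendritic progenitor-like cells they were 1.004 for Alcam and 0.861 for Cd9. Against megakaryocyte progenitor-like cells they were 0.588 for Itga6 and 0.482 for Cd9, and against basophil and mast cell-like cells 0.924 for Itga6. The clusters share mice and every test used the same HSC-like sums, so the 17 are not independent of each other. They also depended on single mice, most of all on the young male, as described above.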

How the results depend on the processing

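In HSC-like cells, the number of the 9 genes called higher with age stayed at 3 under all alternatives but the trend in weeks, in which Itga6 missed the threshold (log2 fold change 0.86, adjusted p = 0.0591), and the fit without the young male, which called 0. Without that mouse the fit rests on 1 young mouse. The number called lower was 0 with DESeq2, with old or very old mice alone, in thinned cells, in cells without Vwf and with the trend, and 2 without the filter on low counts or without cycling cells. Removing 1 mouse gave 0 to 3 higher and 0 to 2 lower. The test without the sex term (no replicate block) called 3 higher and 1 lower. For these alternatives the share of all genes called is not given here, so the counts in this paragraph describe only the 9 genes. In all cells, the calls were 3 higher with DESeq2 or old mice alone, 2 with no filter and 0 without the sex term or with very old mice alone, and 0 to 1 on removing 1 mouse. In middle-aged HSC-like cells DESeq2 called 1 higher, no filter gave 3 higher and 1 lower, and removal of 1 mouse gave 0 to 1 higher and 0 to 2 lower. In the other classes, where 3 were called higher, DESeq2, no sex term and old mice alone gave 1 each, no filter gave 2 lower, and removal of 1 mouse gave 0 to 3 higher and 0 to 2 lower. The differences between classes gave 0 to 17 higher and 0 to 7 lower.

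Signs turned for genes near 0. In HSC-like cells, Cxcr4 was at 0.0592 without cycling cells and at -0.40 to 0.24 on removing 1 mouse, and Itgb1 at -0.0337 to 0.0878. In all cells, Cd44 was at 0.0011 with RLE, 0.0012 with DESeq2, 0.0916 in very old mice and -0.078 to 0.0819 on removing 1 mouse, Selplg at 0.11 in old mice and -0.28 to 0.0477, Cd47 at 0.0494 in very old mice and -0.0379 to 0.0208, and Cxcr4 at -0.00068 to 0.21. In the Vwf split without thinning, Itgb1 was at 0.041 and 3 genes were called lower, calls not set against the share of all genes. Without thinning, the share of HSC-like cells with a UMI in older minus young mice was -18.1 points for Cd44 (-6.88 thinned), -3.75 for Cxcr4 (-1.51), -13.4 for Itga4 (-7.17), -7.76 for Itgb1 (-0.485) and -15.8 for Selplg (-9.31). The cause was not tested, apart from depth, which was lower in older mice. Doublet removal, clustering without Harmony or at a resolution of 1.6, RLE and the stricter cell filter kept all 4 calls. Doublet removal took out only 0 to 18 HSC-like cells per mouse, so it could hardly change them. The 2 cell subsets (with Hlf, without Vwf) were added after seeing the data. The level of Alcam was low in megakaryocyte progenitor-like cells (median 3.01 CPM), where it rests on 10 to 50 UMIs per mouse.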

Other observations

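In the HSC-like cells of single mice, the counts behind the 9 genes differed widely. Cxcr4 ranged from 65 to 178 UMIs per mouse and Alcam from 133 to 787, whereas Cd47 ranged from 1933 to 2854. In all cells, the niche-ligand genes Kitl and Vcam1 gave 82 and 4351 UMIs. Vcam1 was found in 2.33% to 5.63% of the cells of a library, and Itgam, which encodes an antigen of the lineage gate, in 2.97% to 6.73%.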
